A study of Mus musculus with 24 samples.

Results

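The cell cycle genes of these aortas are 38 genes chosen by name, 11 for DNA replication and 27 for mitosis. Counts were found by gene symbol for 37 of them, out of 37606 genes in the table. All 11 replication genes and 26 mitosis genes had counts, and Kif11 was not analysed here. No measured value entered the rule that chose the 38 genes, but earlier results of these data were known when they were chosen. The samples were homogenates of whole aortas from WT mice given a subcutaneous infusion of angiotensin II (Ang II, a peptide that raises blood pressure) or a sham infusion, lasting 2 weeks and delivered from an implanted osmotic minipump. Harvest followed after 2, 4 or 6 months, which gave 6 groups of 4 libraries, and the series concerns the receptor Axl in aortic remodelling after hypertension. Every group was WT, and the comparison at each time asks what was still different in the aorta long after the infusion. Age, sex and strain are not stated in the labels used here. The labels do not say whether the 4 libraries of a group came from separate mice, so p-values measure only the spread between libraries.

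A cell that divides first copies its DNA and then separates the copies. The MCM helicase, the sliding clamp Pcna and the enzymes that make deoxynucleotides act in the first step, and E2F factors switch on many of their genes. Cyclin B with Cdk1, the Aurora and Polo kinases, the spindle checkpoint, kinesins and the cytokinesis machinery act in the second, and many of their genes carry promoter elements named CHR and CCAAT that the DREAM and NF-Y complexes read. Most cells of a healthy adult aorta are not dividing, while activated lymphocytes and basal cells of surface epithelia divide often.

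Stretches of 6 promoters, 3 of replication and 3 of mitosis genes, are shown because the genes behind them are described below and so that the presence or absence of these elements can be seen. Each is the 150 bases just upstream of the RefSeq start site on mouse build GRCm38.p6, written 5′ to 3′ on the gene's strand. Capitals mark matches to CCAAT, to CHR (TTTGAA or TTCGAA) or to E2F (TTTCCCGC, TTTCGCGC, TTTGGCGC or TTTGCCGC), each on either strand. No window overlaps an exon of GENCODE release M21. Mcm6 and Mcm3 encode helicase subunits and Rrm1 a ribonucleotide reductase subunit, and their windows are chr1:128359706-128359855 (minus strand), chr1:20820313-20820462 (minus) and chr7:102441545-102441694 (plus). The proliferation marker Mki67, the topoisomerase Top2a and cyclin Ccnb2 have the windows chr7:135716380-135716529, chr11:99024190-99024339 and chr9:70421555-70421704, all on the minus strand.
Mcm6: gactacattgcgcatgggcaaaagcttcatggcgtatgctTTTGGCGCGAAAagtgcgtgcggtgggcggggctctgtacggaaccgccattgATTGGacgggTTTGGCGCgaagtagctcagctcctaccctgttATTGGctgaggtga
Mcm3: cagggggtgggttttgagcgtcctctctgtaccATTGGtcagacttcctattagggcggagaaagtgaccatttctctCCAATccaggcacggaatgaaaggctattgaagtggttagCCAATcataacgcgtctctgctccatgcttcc
Rrm1: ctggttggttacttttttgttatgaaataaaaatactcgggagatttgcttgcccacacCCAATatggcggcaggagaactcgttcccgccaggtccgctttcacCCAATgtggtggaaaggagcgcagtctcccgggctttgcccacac
Mki67: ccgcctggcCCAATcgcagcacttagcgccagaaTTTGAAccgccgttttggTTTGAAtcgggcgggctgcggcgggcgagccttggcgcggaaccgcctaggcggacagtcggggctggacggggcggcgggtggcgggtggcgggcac
Top2a: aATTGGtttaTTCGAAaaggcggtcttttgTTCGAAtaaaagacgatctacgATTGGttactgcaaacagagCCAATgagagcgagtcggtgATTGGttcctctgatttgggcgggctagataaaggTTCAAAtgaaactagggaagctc
Ccnb2: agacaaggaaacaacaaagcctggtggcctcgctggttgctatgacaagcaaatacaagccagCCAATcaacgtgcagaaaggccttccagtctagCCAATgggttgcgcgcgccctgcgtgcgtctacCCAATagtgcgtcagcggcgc

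The Mcm6 window held 3 E2F matches, the first pair overlapping on opposite strands, and 2 CCAAT matches. Mcm3 held 3 CCAAT matches and Rrm1 held 2, with no E2F or CHR match in either window. Top2a held 3 CHR and 4 CCAAT matches, Mki67 2 CHR and 1 CCAAT, and Ccnb2 3 CCAAT. RefSeq promoters were matched by symbol for 31 of the 38 genes, and Mcm4, Ccna2, Aurkb, Kif20a, Tpx2, Foxm1 and Stmn1 had none in the table. Over the 250 bases upstream of the start, E2F matched in 3 of 10 replication genes (30.0%) and 1 of 21 mitosis genes (4.76%), against 1.86% of all 32851 promoters. CHR matched in 10 of 21 mitosis genes (47.6%) and 2 of 10 replication genes (20%), against 17.1% of all. CCAAT matched in 18 of 21 mitosis genes (85.7%) and 8 of 10 replication genes (80.0%), against 33.8% of all. CHR and CCAAT occurred together in the same 10 mitosis genes and 2 replication genes that held CHR, against 6.02% of all promoters. Here a gene counted as matched if any of its promoters matched (34 promoters for 31 genes), while the share of all counts each promoter. A match describes these letters and is not evidence of a bound factor.

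Library totals ran from 19163673 to 58676098 counts. Mitochondrial genes took 7.718 to 16.32% of counts at 2 and 4 months and 31.75 to 59.31% at 6 months, and the 6-month libraries also lacked most of the neuronal transcripts of the earlier ones, as described with Stmn1 below. Time and kind of library therefore cannot be told apart between 6 months and the earlier times. Single libraries stood apart in lymphocyte or squamous epithelial genes, and results that rest on them are given with and without them. Smooth muscle, endothelial and fibroblast markers were detected in full in every library, although the smooth muscle level differed between groups. Levels below are CPM, counts scaled to a common library total, after TMM scaling over all 24 libraries, with SD over the 4 libraries of a group. On this scale 12 contractile smooth muscle genes summed to 3738 to 6897 CPM in sham at 2 months and 979.8 to 1872 CPM with Ang II. These groups did not overlap, and the sum was 647.7 to 2767 CPM in the later libraries. Endothelial genes summed to 689.1 to 1162 CPM and fibroblast genes to 873.7 to 2829 CPM over the 24 libraries. The bearing of these levels on the members was not tested. In whole tissue, fewer cells of a type and less RNA per cell cannot be told apart.

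Replication genes were measured at moderate depth and mitosis genes at low depth. The lowest count of any replication gene in any library was 27, while 11 of the 26 mitosis genes fell below 10 counts in at least 1 library. Mki67 had 6 counts in its lowest library and 1653 in its highest, and the kinetochore genes Bub1 and Ndc80 went down to 1 count. Per kilobase of exon, Pcna was the highest member in sham aortas at 2 months, at 16.4 ± 0.847 CPM per kb (SD, n = 4). Stmn1, which encodes a protein that destabilises microtubules, followed at 13.8 ± 6.71 CPM per kb, a difference smaller than its SD. The helicase subunit Mcm7 had 4.55 ± 0.434 CPM per kb, Mki67 0.484 ± 0.656 CPM per kb, and Ndc80 was lowest at 0.0891 CPM per kb. Pcna has the pseudogene copies Pcna-ps1 and Pcna-ps2, and Tyms, Ccnb1 and Ccnb2 each have a named pseudogene, so the counts of these 4 genes are uncertain where reads were shared. Exons of 12 members share bases with other genes, most of all Kif20a with Cdc23 (29.3% of its exonic bases) and Ube2c with the troponin gene Tnnc2 (22.8%), and the strand setting of the counting is not given in the sources used here.

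**Figure D1:**
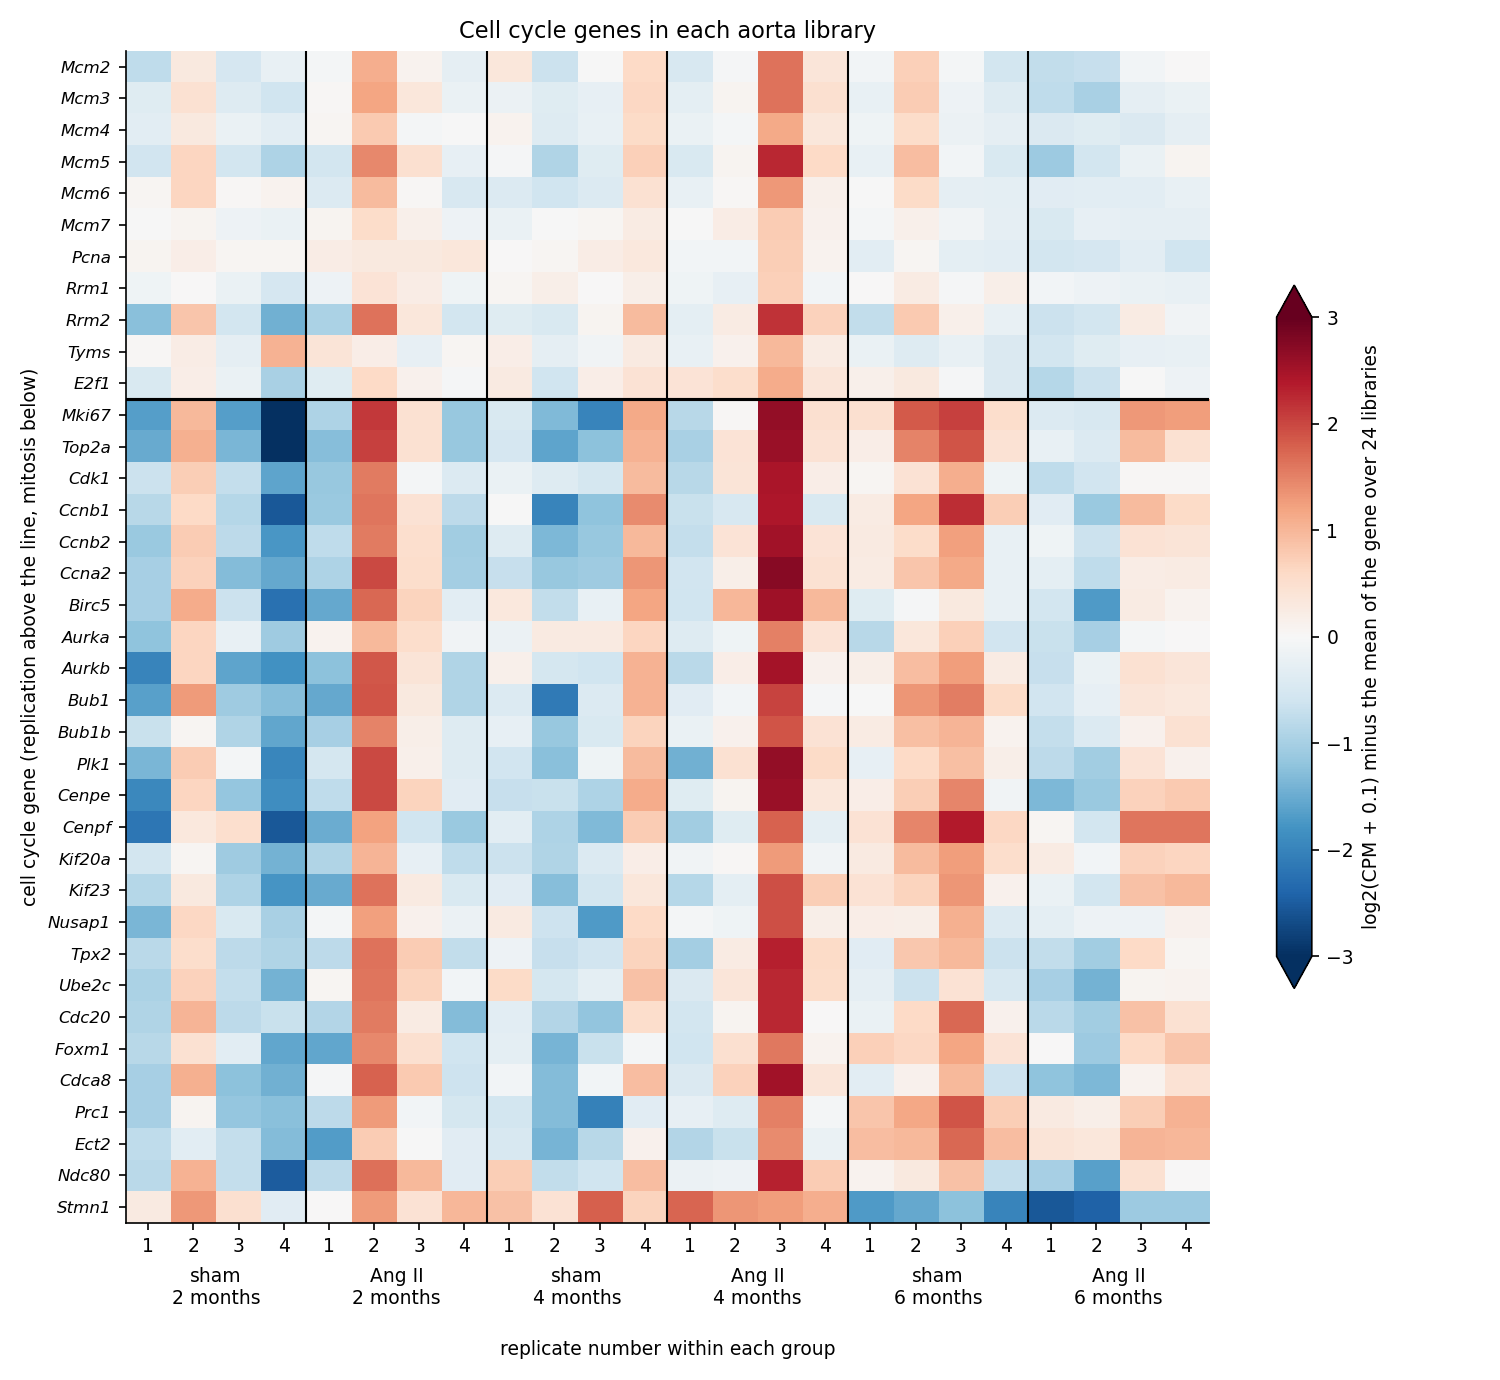
Heat map of the 37 cell cycle genes (rows, replication above mitosis) in 24 libraries (columns, by group), coloured by log2(CPM + 0.1) minus the gene's mean over libraries. Most genes are highest in the same single library of each group at 2 and 4 months, such as Ang II replicate 3 at 4 months.

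The members were highest together in 1 library of each early group. At 2 months, 35 of 37 members had their highest sham value in replicate 2 and 35 of 37 their highest Ang II value in replicate 2. At 4 months this was replicate 4 for sham (35 of 37) and replicate 3 for Ang II (36 of 37). The exceptions were Tyms and Cenpf, Pcna and Tyms, Rrm1 and Stmn1, and Stmn1, in that order of groups. At 6 months all 26 mitosis genes peaked in sham replicate 3, 10 of 11 replication genes in sham replicate 2, and the Ang II group was led by replicates 3 and 4 (17 and 18 members). The heat map of members by library shows these columns.

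Summed replication CPM in sham aortas at 2 months was 127.2, 168.7, 125.1 and 123.2 in replicates 1 to 4. With Ang II at 2 months it was 137.5, 225.4, 158.1 and 135.6. Replicate 2 was highest in both groups and the groups overlapped. At 4 months summed replication CPM was 135.9, 124.2, 137.2 and 183.2 in sham and 125.1, 139, 304.7 and 159.5 with Ang II. Ang II replicate 3 stood far above the other libraries, and the remaining values overlapped with sham. At 6 months the sums were 125.2, 176.9, 123.4 and 116.7 in sham and 99.47, 103.7, 116.2 and 112.9 with Ang II, so that every Ang II library lay below every sham library.

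Summed mitosis CPM is given without Stmn1, which alone supplied a large part of the sum at 2 and 4 months. At 2 months it was 21.6, 85, 27.15 and 12.92 in sham and 27.41, 171.8, 66.96 and 30.94 with Ang II. At 4 months it was 42.68, 24.31, 27.38 and 93.71 in sham and 32.33, 56.84, 259.3 and 65.64 with Ang II. In each of these groups 1 library exceeded all the others, and sham and Ang II overlapped. At 6 months it was 59.73, 106.2, 150.6 and 58.58 in sham and 38.09, 32.91, 85.87 and 81.69 with Ang II, which also overlapped.

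Mitosis genes varied far more between libraries of a group than replication genes did. The highest summed mitosis CPM was 6.58 times the lowest in sham and 6.27 times with Ang II at 2 months, where the replication sums gave 1.37 and 1.66 times. At 4 months the mitosis ratios were 3.86 in sham and 8.02 with Ang II, against 1.47 and 2.44 for replication. At 6 months they were 2.57 and 2.61, against 1.52 and 1.17. Single genes showed the same order, with a median ratio of highest to lowest library of 5.93 for mitosis and 2.09 for replication genes in sham aortas at 2 months, and 3.02 and 1.26 with Ang II at 6 months. Counting error is larger for the mitosis genes, whose counts are lower. The quotient of the summed mitosis to the summed replication CPM ran from 0.105 to 1.22 over the 24 libraries. Its mean at 2 months was 0.2489 in sham and 0.4033 with Ang II. The means were 0.3052 and 0.4824 at 4 months, then 0.7 and 0.5408 at 6 months, in the same order.

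**Figure D2:**
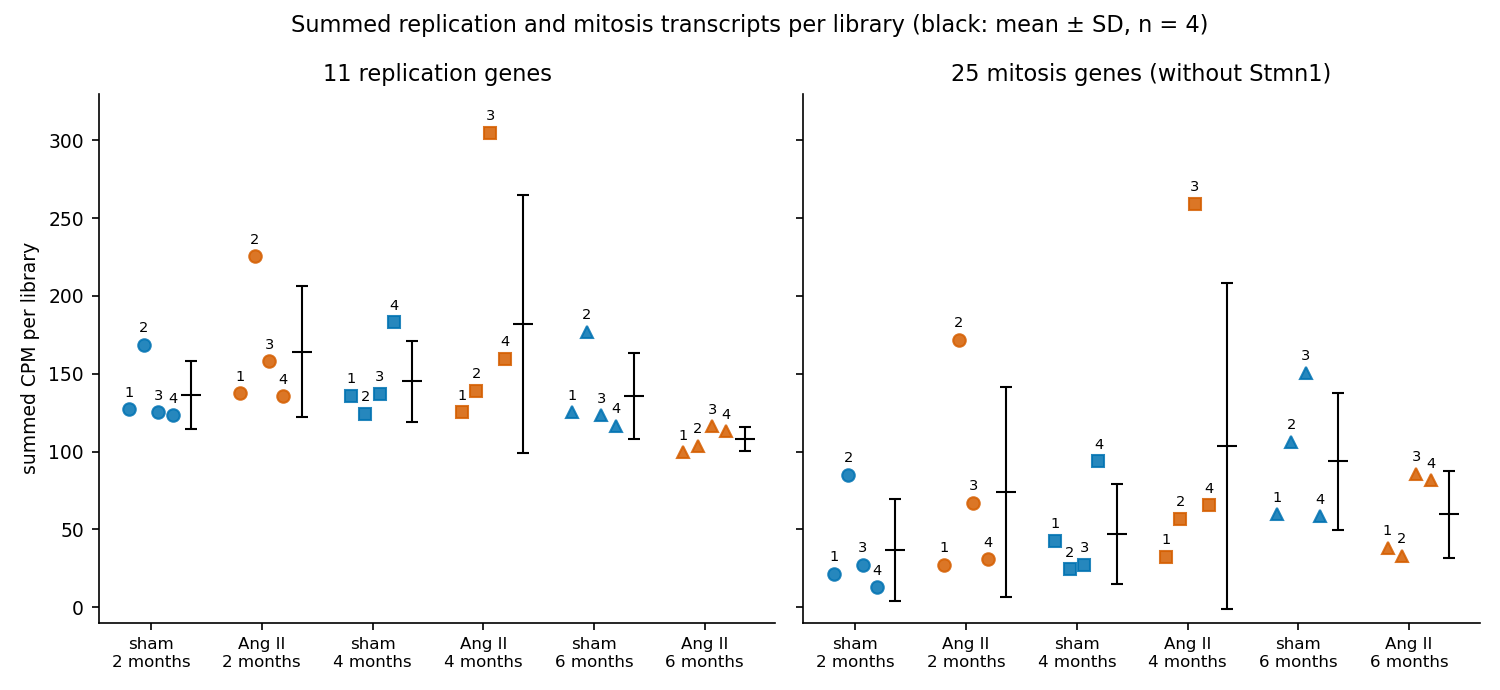
Summed CPM of the 11 replication genes and of 25 mitosis genes without Stmn1 in each library (points), with group mean and SD (black bars), by treatment and months. Replicate 3 at 259.3 CPM lies far above the other mitosis sums at 4 months with Ang II, and the 6-month Ang II replication sums lie below all sham values of that time.

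At 2 months no member passed the test. edgeR called 0 of the 36 members tested, against 1.81% of all genes (0.371% higher and 1.44% lower), and Bub1 did not pass the filter on low counts. At an unadjusted p under 0.05 it found 1 member (10.8% of all genes). DESeq2 called 0 members, against 2.24% of all genes, and limma voom 0, against 3.83%. In the authors' deposited table none of 37 passed, against 745 of all its 18740 genes, with a smallest member adjusted p of 0.196. The fitted log2 difference was above 0 for 34 of 36 members, against 51.7% of all genes. The members' median was 0.803, with 0.378 for replication and 1.04 for mitosis, and 0.00896 for all genes. Without the filter it was above 0 for 35 of 37, with a median of 0.816.

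Among replication genes at 2 months, Pcna, the clamp that holds the polymerase on DNA, gave 39.0, 42.3, 38.1 and 38 CPM in sham and 42.6, 44.7, 45.0 and 46.7 CPM with Ang II. Every Ang II value lay above every sham value, as it did for 7.89% of all genes in either direction. The log2 difference was 0.21 (SE 0.075) with an edgeR adjusted p of 0.324, so it did not pass. Mcm5, a helicase subunit, had 4.12, 9.76, 4.21 and 3.20 CPM in sham and 4.15, 17.0, 8.58 and 5.16 CPM with Ang II. Replicate 2 led both groups, and the groups overlapped (log2 difference 0.75, SE 0.52). The 2 members with a fitted value below 0 were Mcm6 at -0.05 and the thymidylate synthase gene Tyms at -0.20, whose highest value was 9.10 CPM in sham replicate 4.

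Among mitosis genes at 2 months, Mki67 gave 2.29, 14.7, 2.28 and 0.246 CPM in sham and 3.82, 32.6, 10.2 and 3.31 CPM with Ang II. Top2a, which untangles DNA before chromosomes separate, gave 2.04, 12.7, 2.28 and 0.533 CPM in sham and 2.42, 25.2, 8.24 and 2.68 CPM with Ang II. In both genes replicate 2 was highest in each group, and sham replicate 4 was lowest of all 8 libraries. The log2 differences were 1.39 (SE 1.10) for Mki67 and 1.17 (SE 1.03) for Top2a, close to their standard errors. The largest was 1.56 (SE 0.84) for Cenpe, a kinesin of the kinetochore, with an edgeR adjusted p of 0.600. The smallest p of a mitosis gene belonged to Ube2c, which encodes the ubiquitin-conjugating enzyme of the anaphase-promoting complex (log2 difference 1.17, SE 0.59, edgeR adjusted p = 0.553). It was followed among mitosis genes by the checkpoint kinase gene Bub1b (1.10, SE 0.59, edgeR adjusted p = 0.595), Cenpe and then Prc1, a spindle midzone gene (1.04, SE 0.58, 0.619). Among replication genes Rrm1 came next after Pcna (0.33, SE 0.17, edgeR adjusted p = 0.578).

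Without Ang II replicate 2 the members' median at 2 months was 0.196, with 30 of 36 above 0. Without sham replicate 2 it was 1.43. With both left out, edgeR called 0 of 36, against 0.307% of all genes, the median was 0.717 and 33 were above 0. This last fit was chosen after the data were seen and leaves out the leading library of each group, so it is not an independent test.

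At 4 months again no member passed. edgeR called 0 of 37 members, against 0.707% of all genes (0.143% higher and 0.564% lower). It found 2 at an unadjusted p under 0.05 (15.5% of all genes). DESeq2 called 0 members, against 3.01% of all genes, and limma voom 0, against 3.73%. In the authors' deposited table none of 37 passed, against 1028 of all its 18361 genes, with a smallest member adjusted p of 0.164. All 37 fitted values were above 0, against 57% of all genes. The median was 0.914, with 0.464 for replication, 1.07 for mitosis and 0.0439 for all genes.

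Mki67 at 4 months gave 5.37, 2.88, 1.80 and 16.4 CPM in sham and 4.14, 7.63, 46.7 and 10.3 CPM with Ang II. Ccnb2, the cyclin partner of Cdk1 at mitotic entry, gave 0.997, 0.465, 0.545 and 2.69 CPM in sham and 0.763, 1.81, 8.15 and 1.81 CPM with Ang II. For both, Ang II replicate 3 was highest and the other Ang II libraries lay within the sham range. The smallest p among members belonged to Prc1, which bundles the microtubules of the central spindle, at 0.997, 0.558, 0.293 and 1.16 CPM in sham and 1.25, 1.12, 4.50 and 1.45 CPM with Ang II. The groups of Prc1 overlapped only through Ang II replicate 2 and sham replicate 4. Its log2 difference was 1.45 (SE 0.57; edgeR adjusted p = 0.271), and that of Foxm1, a transcription factor of mitotic genes, was 1.21 (SE 0.51; edgeR adjusted p = 0.304). The kinesin genes Kif20a (0.83, SE 0.42, edgeR adjusted p = 0.377) and Kif23 (1.16, SE 0.62, 0.409) and Cdc20, the activator of the anaphase-promoting complex (1.26, SE 0.68, 0.409), had the next smallest p values of mitosis genes.

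Replication genes at 4 months followed the same library. Mcm6 gave 10.7, 9.34, 10.6 and 19.6 CPM in sham and 12.2, 14.5, 35.1 and 15.6 CPM with Ang II. Rrm1 gave 22.0, 23.8, 21.2 and 23.6 CPM in sham and 19.2, 17.7, 34.7 and 19.8 CPM with Ang II, so that 3 Ang II libraries lay below all of sham and 1 above. The smallest p of a replication gene was that of E2f1, a transcription factor of S-phase genes (log2 difference 0.53, SE 0.26, edgeR adjusted p = 0.372). Without Ang II replicate 3 the members' median was 0.139 with 26 of 37 above 0, and without sham replicate 4 it was 1.42. With both left out, a fit likewise chosen after the data were seen, edgeR called 0 of 37, against 2.92% of all genes. The median was then 0.508 and 34 were above 0.

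Over 2 and 4 months together, with time as a block, edgeR called 0 of 37 members, against 0.915% of all genes. It found 12 at an unadjusted p under 0.05 (15.1% of all genes). DESeq2 and limma voom called 0 members, against 2.1 and 2.49% of all genes. All 37 fitted values were above 0, against 54.3% of all genes, and the median was 0.887. Prc1 had the smallest p (log2 difference 1.24, SE 0.42, edgeR adjusted p = 0.175), followed by Bub1b (1.03, SE 0.41, edgeR adjusted p = 0.249). E2f1 and Mcm7 gave 0.49 (SE 0.21) and 0.28 (SE 0.12), and Cenpe and Kif23 gave 1.39 (SE 0.59) and 1.14 (SE 0.49). The median was 0.507 without Ang II replicate 3 of 4 months. It was 0.691 without all 4 leading libraries of the early groups, a fit chosen after the data were seen. There 35 of 37 were above 0 and 0 were called, against 0.27% of all genes.

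**Figure D3:**
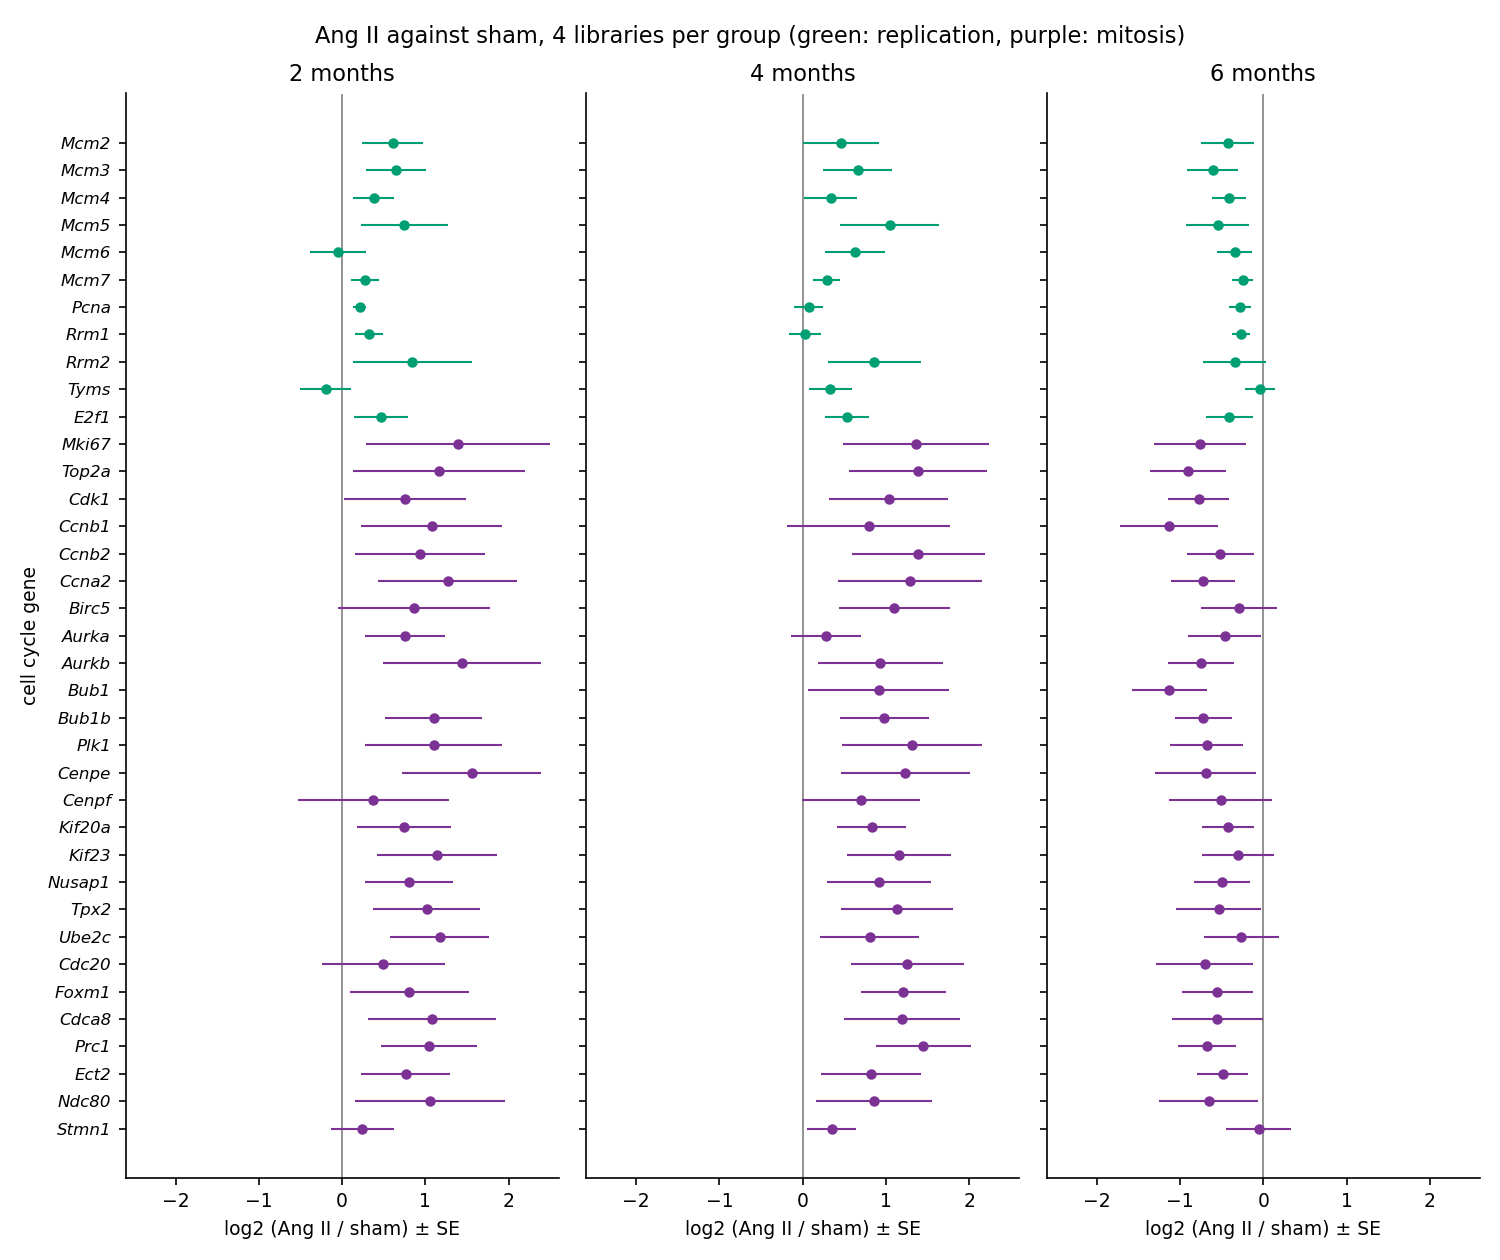
Log2 difference of Ang II over sham (points, with standard error) for each member at 2, 4 and 6 months. Members lie above 0 at 2 and 4 months except Mcm6 and Tyms at 2 months, all 37 lie below 0 at 6 months, none passed an adjusted p of 0.05, and Bub1 was not tested at 2 months.

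At 6 months the members pointed the other way, and none passed. edgeR called 0 of 37 members, against 0% of all genes, with 2 members at an unadjusted p under 0.05 (5.05% of all genes). DESeq2 called 0 members, against 0.151% of all genes, and limma voom 0, against 0%. In the authors' deposited table none of 37 passed, against 68 of all its 22783 genes, with a smallest member adjusted p of 0.692. All 37 fitted values were below 0, while 45.2% of all genes lay above 0. The median was -0.519, with -0.345 for replication, -0.602 for mitosis and -0.0252 for all genes.

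Rrm1 at 6 months gave 21.3, 24.8, 20.5 and 23.7 CPM in sham and 19.9, 18.8, 18.2 and 18 CPM with Ang II. Mcm4 gave 10.8, 17.2, 10.3 and 9.77 CPM in sham and 8.64, 9.19, 8.74 and 9.71 CPM with Ang II. In both genes every Ang II library lay below every sham library, as for 2.87% of all genes in either direction. Their log2 differences were -0.27 (SE 0.11; edgeR adjusted p = 0.934) and -0.41 (SE 0.21; edgeR adjusted p = 1). Mki67 gave 10.3, 26.6, 31.0 and 10.6 CPM in sham and 5.53, 5.30, 18.4 and 17.8 CPM with Ang II. Its groups overlapped, with sham replicates 2 and 3 highest (log2 difference -0.76, SE 0.55). The largest differences were -1.14 (SE 0.59) for cyclin Ccnb1 and -1.13 (SE 0.45; edgeR adjusted p = 0.932) for the checkpoint kinase Bub1. Pcna gave -0.28 (SE 0.13), the mitotic kinase Cdk1 -0.77 (SE 0.37) and Bub1b -0.72 (SE 0.35), each with an edgeR adjusted p of 1.

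Single libraries moved the 6-month median as well. It was -0.305 without sham replicate 3 and -0.283 without Ang II replicate 2, each with 4 members above 0, and -0.702 without Ang II replicate 3. Without the 4 libraries with squamous epithelial genes above 1000 CPM, which left 2 sham and 2 Ang II libraries, it was -1.03. Then 0 members lay above 0, and edgeR called 0 members and 0% of all genes. This setting was added after the data were seen.

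Whether the Ang II difference itself changed between the times was tested over all 24 libraries. edgeR called 0 of 37 members, against 0.536% of all genes, and found 2 at an unadjusted p under 0.05 (11.9% of all genes). DESeq2 and limma voom called 0 members, against 1.43 and 4.1% of all genes. The smallest values were those of Prc1 (edgeR adjusted p = 0.343) and Mcm7 (edgeR adjusted p = 0.419). From 2 to 6 months the Ang II difference moved by -1.67 for Prc1, -0.49 for Mcm7, -1.77 for Bub1b, -1.22 for Mcm3, -0.84 for E2f1 and -0.46 for Pcna on the log2 scale. None of the 6 passed the test, which takes the changes from 2 to 4 and from 2 to 6 months jointly. The change from 2 to 6 months alone was not tested.

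Some markers of other cell types were highest in the early libraries that led the members, and others were not. Mef2b, a transcription factor gene of germinal centre B cells, was highest in the same 4 libraries that led the members. It gave 15.37 CPM in Ang II replicate 3 of 4 months, 7.058 in Ang II replicate 2 of 2 months, 4.115 in sham replicate 4 of 4 months and 3.255 in sham replicate 2 of 2 months. The other 12 early libraries held 0.282 to 1.973 CPM. Gcsam and S1pr2, further genes of these cells, had their 3 highest early values in the first 3 of these libraries. The next highest S1pr2 value, 8.16 CPM, was in sham replicate 4 of 2 months, which had the lowest mitosis sum. The summed level of 9 germinal centre genes overlapped between groups, at 84.3 to 168 and 112 to 164 CPM at 2 months and 113 to 148 and 124 to 183 CPM at 4 months, sham before Ang II. Between 7 and 9 of them were detected. This sum did not follow the members in every group: at 2 months Ang II replicate 2 had 145.2 CPM, below 164.2 in Ang II replicate 3 and 146.6 and 147.8 in sham replicates 1 and 3.

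General B and T cell markers (14 and 12 genes) summed to 55.43, 493.7, 54.78 and 58.8 CPM in sham and 184.9, 807, 420.6 and 90.81 CPM with Ang II at 2 months. At 4 months they summed to 625, 143.3, 313.1 and 408.9 CPM in sham and 123.1, 268.6, 1125 and 568.5 CPM with Ang II. The library with the most mitosis CPM also had the most lymphocyte CPM in 3 of these 4 groups. The exception was sham at 4 months, where replicate 1 had more lymphocyte CPM than replicate 4. All 26 markers were detected in every library except sham replicate 2 of 4 months, which lacked 1 of each list. A list of 14 macrophage genes summed to 387.4 to 644.4 CPM in sham and 640.4 to 1001 CPM with Ang II at 2 months. At 4 months it gave 386.1 to 628.3 and 711.8 to 1173 CPM, without overlap, and at 6 months 827.9 to 1329 and 763.4 to 1156 CPM. It was highest in the members' leading library in Ang II at 2 months and sham at 4 months, and not in the other early groups. The part of lymphocytes or macrophages in the members' levels was not tested.

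**Figure D4:**
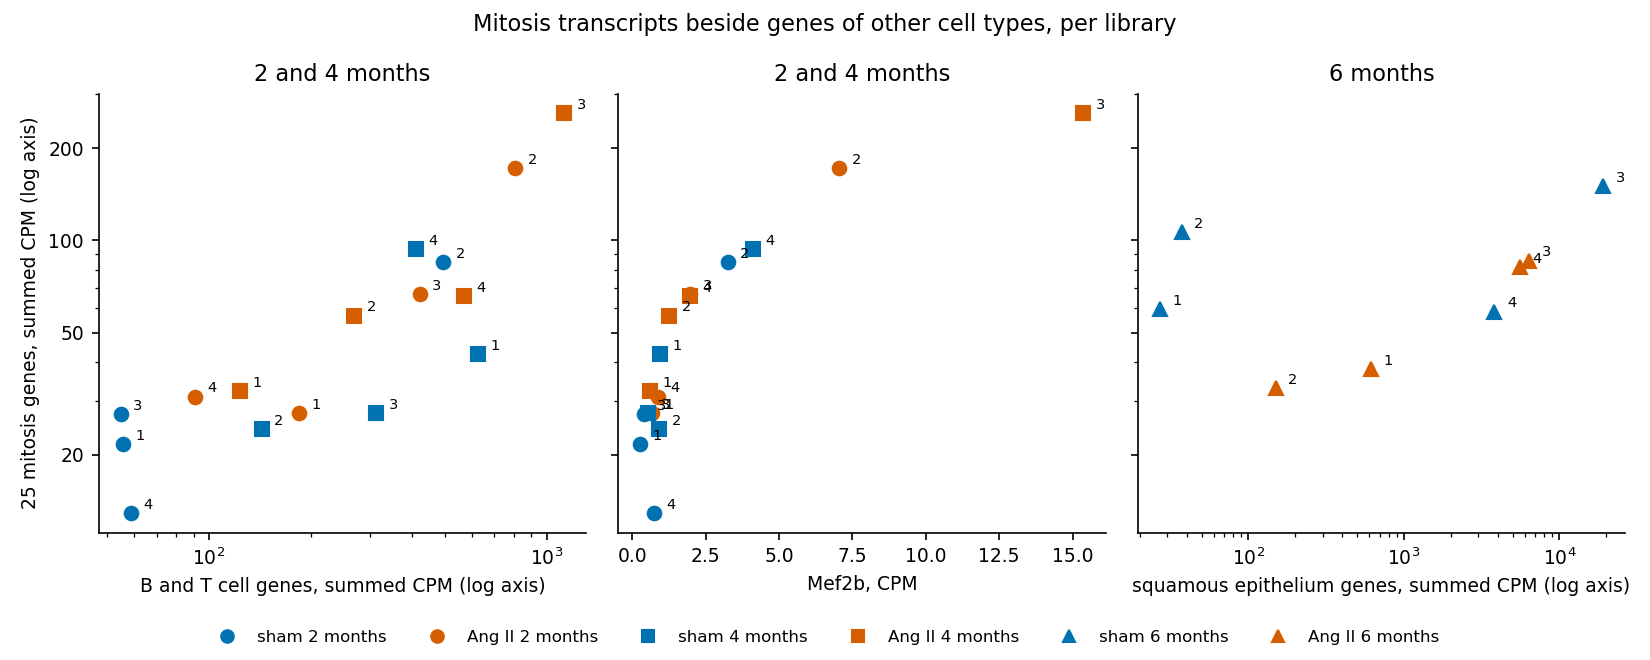
Summed mitosis CPM without Stmn1 in each library (log axis) plotted at 2 and 4 months against the summed CPM of B and T cell markers (log axis) and against Mef2b CPM, and at 6 months against the summed CPM of squamous epithelial genes (log axis), with 1 numbered point per library. The 4 early libraries with Mef2b above 2 CPM, a limit set after the data were seen, are those with the most mitosis CPM in their groups. Mef2b is 1 of 9 germinal centre genes, whose sum did not follow the members in every group.

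At 6 months the leading libraries carried other markers. The sum of 14 squamous epithelial genes, a list made with these data in view, was 26.94, 37.12, 19080 and 3817 CPM in sham and 612.1, 149.6, 6422 and 5574 CPM with Ang II. At 2 and 4 months it summed to between 6.13 and 57.8 CPM, with 6 to 9 of 14 genes detected. Sham replicate 3, highest for all 26 mitosis genes, was also highest for this list, and Ang II replicates 3 and 4 were high for both. Sham replicate 4, with 3817 CPM of squamous genes, had the lowest sham mitosis sum, 58.58 CPM, and sham replicate 2, with few squamous transcripts, had 106.2 CPM. Skeletal muscle genes also peaked in Ang II replicates 3 and 4, at 8331 and 7111 CPM against 41.78 to 998.8 CPM in the other 6-month libraries. Sham replicate 2, which led the replication genes, had the most B and T cell CPM of the 6-month libraries, 685.1. Rag1, which rearranges antigen receptor genes in immature lymphocytes, gave 19.37 and 4.47 CPM in Ang II replicates 3 and 4. It gave at most 1.658 CPM in the others. Dntt and Rag2, further genes of these cells, were also highest in Ang II replicates 3 and 4, at up to 3.99 and 0.462 CPM. Ptcra, a receptor chain of immature T cells, was at 0 in 6 of 8 libraries and at most 0.0726 CPM. A list of 12 genes of immature T cells, which holds these 4, summed to 146.2 and 90.25 CPM in Ang II replicates 3 and 4. The other 6-month libraries held 83.09 to 137.7 CPM. Mef2b was 0.0598 to 0.58 CPM at 6 months. The part of these cells in the members' levels was not tested.

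Stmn1 was led by other libraries than the rest of the mitosis genes at 4 months. It gave 21.9, 44.6, 25.4 and 14.4 CPM in sham and 18.4, 44.4, 24.5 and 36.3 CPM with Ang II at 2 months. At 4 months it gave 33.8, 24.6, 63.6 and 29.0 CPM in sham and 60.8, 45.8, 43.4 and 38.6 CPM with Ang II. The highest values, in sham replicate 3 and Ang II replicate 1 of 4 months, fell in libraries where Mki67 was only 1.80 and 4.14 CPM. At 6 months all 8 libraries lay between 3.02 and 8.48 CPM, below every earlier library. Stmn1 is also well known in neurons. A list of 12 peripheral neuron genes, also made with these data in view, was highest in the same pair of libraries, at 2817 and 3042 CPM, and summed to between 677 and 3042 CPM at 2 and 4 months and between 15.64 and 32.21 CPM at 6 months. Th, the enzyme of noradrenaline synthesis, gave 85.6 to 382 CPM early and 0 to 2.03 CPM at 6 months. The part of nerve RNA in the Stmn1 level was not tested.

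**Figure D5:**
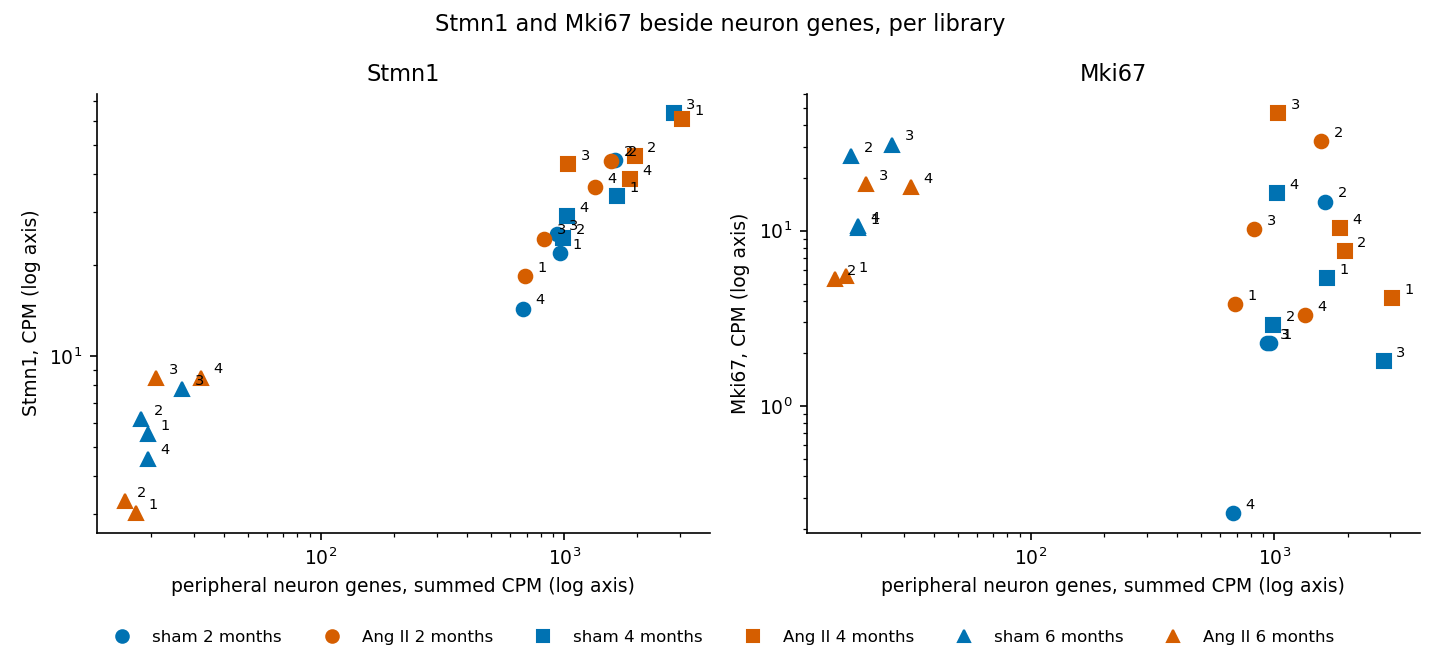
Stmn1 and Mki67 CPM in each library against the summed CPM of 12 peripheral neuron genes (log axes, coloured by group). Stmn1 and the neuron genes are both low in all 8 libraries of 6 months, and Mki67 shows no such split.

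Between sham groups, 4 against 2 months gave no member past the test. edgeR called 0 of 36 members, against 0.00619% of all genes, with 0 at an unadjusted p under 0.05 (15.8% of all genes). DESeq2 and limma voom called 0 members, against 2.43 and 4.96% of all genes. The smallest p values were those of Rrm1 (log2 difference 0.27, SE 0.13, edgeR adjusted p = 0.343) and Mcm6 (-0.43, SE 0.26, edgeR adjusted p = 0.472). E2f1 (0.41, SE 0.33), the Aurora kinase genes Aurkb (0.95, SE 0.77) and Aurka (0.53, SE 0.46) and Stmn1 (0.46, SE 0.40) followed, with edgeR adjusted p values above 0.5. The median was 0.266 with 31 above 0, against 46.7% of all genes. All 36 members overlapped between the groups, while 9.4% of all genes did not. The median was -0.136 with 10 above 0 without replicate 4 of 4 months and 0.824 without replicate 2 of 2 months. It was 0.414 with 32 of 36 above 0 when both were left out, a fit chosen after the data were seen.

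At 6 against 2 months in sham aortas, 8 of 37 members passed the edgeR test, 6 higher and 2 lower. That is 21.6% of the members. Over all genes 57.3% passed, 28.4% higher and 28.9% lower. The 6 that rose were Ect2, Prc1, Kif20a, Bub1b, Kif23 and Foxm1, and the 2 that fell were Stmn1 and Pcna. Other mitosis genes did not pass, among them Aurkb (edgeR adjusted p = 0.0947), Cenpe (0.111), Bub1 (0.210) and Birc5, an inhibitor of apoptosis that acts with Aurkb (0.881). By sign, 51.5% of all genes were higher at 6 months, and 62.1% had an unadjusted p under 0.05. With the replicate number as a block 16 members passed (43.2%, against 57.4% of all genes). Without replicate 1 of 2 months 4 passed (10.8%, against 51.4%), without replicate 3 of 6 months 4 (10.8%, against 51.9%), and without replicate 2 of 2 months 20 (54.1%, against 55.5%). Time and kind of library cannot be told apart here.

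Ect2, the exchange factor that activates RhoA at the cleavage furrow, gave 0.705, 0.994, 0.725 and 0.451 CPM at 2 months and 2.49, 2.59, 4.4 and 2.48 CPM at 6 months. The groups did not overlap, as for 53.5% of all genes, and the log2 difference was 2.06 (SE 0.34; edgeR adjusted p = 0.000949). Prc1 gave 0.705, 1.61, 0.622 and 0.574 CPM at 2 months and 2.78, 3.48, 5.89 and 2.59 CPM at 6 months, again without overlap (log2 difference 2.07, SE 0.45, edgeR adjusted p = 0.00415). The cytokinesis kinesin Kif20a (1.54, SE 0.42, edgeR adjusted p = 0.0122) and Bub1b (1.32, SE 0.40, edgeR adjusted p = 0.0204) did not overlap either, nor did Stmn1 and Pcna below. Kif23, a kinesin of the central spindle, rose by 1.40 (SE 0.49, edgeR adjusted p = 0.0376) and Foxm1 by 1.20 (SE 0.46, edgeR adjusted p = 0.0493).

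Stmn1 fell by 2.14 on the log2 scale (SE 0.35; edgeR adjusted p = 0.000963), from 26.56 ± 12.9 to 6.005 ± 1.338 CPM (SD, n = 4). Pcna fell by 0.30 (SE 0.11; edgeR adjusted p = 0.0478), from 39.37 ± 2.032 to 31.68 ± 4.197 CPM, and its groups were separated by less than 0.1 CPM, since replicate 2 of 6 months reached 37.967 CPM and the lowest library of 2 months 38.009 CPM. Mki67, with 14.7 CPM in 1 sham library of 2 months, gave a log2 difference of 2.01 (SE 0.97; edgeR adjusted p = 0.106). The members' median was 0.754, with 0.247 for replication and 1.17 for mitosis, and 0.0363 for all genes. The calls of Ect2, Prc1 and Stmn1 held without the sham libraries with squamous epithelial genes above 1000 CPM. There 3 members passed (8.11%, against 46.7% of all genes), and the calls of Kif20a, Bub1b, Kif23, Foxm1 and Pcna were lost.

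Other genes of the cell cycle were read from 3 lists: 35 regulators of G1 and their inhibitors, 30 further replication genes and 38 further mitosis genes. Only Ccnd1, cyclin D1, which drives the G1 phase with Cdk4 or Cdk6, passed the edgeR test in any Ang II comparison within a time. At 4 months Ccnd1 gave 18.29, 19.01, 18.62 and 17.62 CPM in sham and 29.72, 37.32, 25.03 and 31.25 CPM with Ang II. Every Ang II value was above every sham value, as for 10.3% of all genes in either direction, and Ang II replicate 3, the leading library of the mitosis genes, was lowest of its group. The log2 difference was 0.77 (SE 0.13; edgeR adjusted p = 0.0460). DESeq2 gave an adjusted p of 6.42e-05 and limma voom 0.018. The edgeR call was lost without the filter (0.0555), with a mean count filter (0.0507), in a fit of all 24 libraries (0.186) and without any 1 library except sham replicate 4 (0.0691 to 0.165). At 2 months the log2 difference of Ccnd1 was -0.27 (edgeR adjusted p = 0.870), with 39.93 CPM in sham replicate 3.

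Most genes of the further replication and mitosis lists had the same signs as the members. At 2 months 28 of 29 further replication genes (median 0.262) and 28 of 30 further mitosis genes (0.715) were above 0, and at 4 months 23 of 30 (0.284) and 34 of 36 (0.950). The smallest p of a further replication gene at 4 months belonged to Gmnn, which was lower with Ang II (log2 difference -0.76, edgeR adjusted p = 0.156). At 6 months 2 of 29 (-0.21) and 1 of 37 (-0.56) were above 0. The edgeR test called 0 of any list at 2 or 6 months, against 1.81 and 0% of all genes. The G1 list was more even, with 22 of 35 above 0 at 2 months, 20 of 35 at 4 months and 9 of 35 at 6 months. Cdkn1a, the p21 inhibitor of cyclin-dependent kinases, gave 72.32 ± 28.82 CPM in sham and 45.59 ± 4.312 CPM with Ang II at 4 months (log2 difference -0.65, edgeR adjusted p = 0.316). Cdkn2a, which encodes the inhibitor p16, gave 0.2716 ± 0.1518 and 0.7388 ± 0.2363 CPM at 2 months (1.46, edgeR adjusted p = 0.246). Trp53, the tumour suppressor p53, gave 23.88 ± 3.558 and 18.88 ± 1.531 CPM at 6 months (-0.34, edgeR adjusted p = 0.942).

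The smallest p values of these lists at 2 months belonged to Gadd45b, a stress-induced growth arrest gene (log2 difference -0.98, edgeR adjusted p = 0.0611), and Anln, which encodes the furrow protein anillin (-0.70, edgeR adjusted p = 0.0788). At 4 months Cit, which encodes citron kinase of the cleavage furrow, was next after Ccnd1 (0.66, edgeR adjusted p = 0.0715), and at 6 months Cdk4 had the smallest p (-0.27, edgeR adjusted p = 0.922). Between sham groups of 6 and 2 months, 5 genes of the G1 list were called higher and 12 lower of 35, 5 and 7 of 29 further replication genes and 8 and 1 of 36 further mitosis genes, where 28.4% of all genes were higher and 28.9% lower. Cdk6 rose by 1.20 (edgeR adjusted p = 3.34e-05) and Cit by 0.92 (edgeR adjusted p = 0.0176). The inhibitor gene Cdkn2c fell by 1.30 (edgeR adjusted p = 0.00318) and the securin gene Pttg1 by 1.23 (edgeR adjusted p = 6.76e-05).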

How the data were processed

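Total RNA of 24 aortic homogenates was made into mRNA libraries, per the labels' protocols. Per the submitters' processing notes, the tools were STAR, featureCounts, cutadapt, FastQC and DESeq2, with build mm10. Tool versions were not given in the sources used here. Whole-number read counts per gene were deposited. The authors also deposited their own comparison for each time, with a log2 fold change and standard error, the fold change as a ratio, and raw and adjusted p-values. The tool of each comparison here was edgeR 4.0.16 (R 4.3.3), run on the counts with these settings: filterByExpr (minimum count 10, minimum total 15), TMM, glmQLFit and glmQLFTest, with Benjamini-Hochberg adjustment over all genes tested at 0.05. Ang II and sham were compared within each time (8 libraries), over 2 and 4 months with time as a block (16), and as an interaction with time (24), and sham groups between times. The test was run on simulated counts for the Ang II comparisons within a time. Each gene was drawn independently there, so this check cannot speak to members that rise together in 1 library. Alternatives were DESeq2 1.42.0, its size factors, limma 3.58.1 voom, no filter, a mean count of at least 5, a replicate block, all 24 libraries and leaving out single libraries.

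Depth was between 19163673 and 58676098 counts per library, and counts of mitosis genes were low. The members, lists and named genes were chosen with earlier results of these data known. All members were accounted for, with values for those called, those of the 6 smallest p per comparison and the highest, for up to 4 genes per further list, and always for Cdkn1a, Cdkn2a, Ccnd1 and Trp53. The reported fits have no replicate block. For sham at 2 and 6 months the blocked count is given beside the result, since deviations of same-numbered libraries correlated at 0.447, 0.173, 0.17 and 0.111. Replicate 3 of 2 months correlated best with replicate 4 of 6 months, so the numbers do not pair every library even in the data. Any pairing there comes from the data and not from the labels. 1 gene of the germinal centre list is not reported here.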

Additional observations from a re-analysis of the deposited data

Results flagged for a closer look

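Of 234 groups of 4 values examined, 48 held a library whose gap to the nearest other exceeded the limit of Dixon's test, where chance flags about 1 in 20 groups. The flagged values fall in few libraries and all but 1 are high, and since members are highest in the same libraries these flags are not independent of each other. Their causes were not tested.

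Ang II replicate 3 of 4 months stood apart for the mitosis CPM summed with Stmn1 included (303) and for 18 members. The replication genes were Mcm6 (35.1 CPM), Rrm1 (34.7 CPM) and E2f1 (6.79 CPM). Among cyclins and kinases the values were 8.31 CPM for Cdk1, 6.95 for Ccnb1, 8.15 for Ccnb2, 12.8 for Ccna2, 6.79 for Aurkb and 2.52 for Bub1. Mki67 was at 46.7 CPM, Top2a at 36.9, Cenpe at 11, Cenpf at 6.83, Nusap1 at 8.89 and Cdc20 at 11. The cytokinesis genes Kif20a, Prc1 and Ect2 were at 3.73, 4.5 and 3.53 CPM.

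Sham replicate 2 of 2 months stood apart for the summed replication CPM (169) and for Mcm4 (14.4 CPM), Mcm5 (9.76), Mcm6 (22.1), Mki67 (14.7), Top2a (12.7), Ccna2 (3.05), Aurkb (1.82), Bub1 (1.44), Cenpe (2.78), Tpx2 (3.22), Cdc20 (4.59), Cdca8 (3.29) and Prc1 (1.61). Ang II replicate 2 of 2 months did so for Mcm4 (20.3 CPM), Plk1 (5.28), Cenpf (4.57) and Nusap1 (5.44). Sham replicate 4 of 4 months did so for Mcm3 (14.5 CPM), Mcm6 (19.6), Cdk1 (2.85), Ccna2 (4.81) and Cenpe (3.88).

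At 6 months sham replicate 2 stood apart for the summed replication CPM (177), Mcm3 (15.8 CPM), Mcm4 (17.2) and Pcna (38), and sham replicate 3 for Ect2 (4.4 CPM). The low value was Mcm7 in Ang II replicate 1 of 6 months, at 15.3 CPM, below 17.3 to 17.7 CPM in the others of its group.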

How the results depend on the processing

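In sham at 4 against 2 months, over 2 and 4 months and by time, the number of members called stayed at 0 in every setting run. Within a time it stayed at 0 except with a replicate block at 2 months, which called 1 member, Cenpe (edgeR adjusted p = 0.0498). That is 2.78% of the members, against 1.27% of all genes. For sham at 6 against 2 months, 8 calls (21.6%, against 57.3% of all genes) became 16 with limma voom (43.2%, against 61.1%). The replicate block gave 16 (43.2%, against 57.4%) and leaving out the squamous libraries 3 (8.11%, against 46.7%). That last setting was added after the data were seen, as was leaving out libraries with Mef2b above 2 CPM. Leaving out 1 library each gave 4 to 20 (10.8 to 54.1%, against 51.4 to 56.4% of all genes). The low end came without replicate 1 of 2 months or replicate 3 of 6 months, and the high end without replicate 2 of 2 months. Among the 8 genes, Ect2, Prc1, Kif20a and Stmn1 were called in every planned setting, and Bub1b was lost without replicate 1 (0.0534) or 3 (0.0518) of 2 months or replicate 3 of 6 months (0.0526). Kif23, Foxm1 and Pcna were lost in several. The log2 ratio of summed replication CPM at 6 months was -0.327, and -0.583 with CPM by library size. Over all genes, the edgeR calls of 297, 114 and 0 at 2, 4 and 6 months were 696, 908 and 54 with DESeq2, and 629 and 602 with limma voom at the first 2 times. At 4 months they were 40 with no filter, 68 with a mean count of at least 5, 0 with the block, 11 with all 24 libraries, 474 without the Mef2b libraries and 0 to 674 without 1 library each, and at 2 months 50 without the Mef2b libraries and 78 to 255 without 1 library each. The pooled early comparison (157) gave 692 with DESeq2, 427 with limma voom, 41 with the block, 373 with all 24 libraries, 46 without the Mef2b libraries and 69 to 232 without 1 library each. The test by time (103) gave 536, 787 and 1 with DESeq2, limma voom and the block. Sham at 4 against 2 months (1) gave 733 with DESeq2, 801 with limma voom, 4 with no filter, 140 with the block, 453 with all 24 libraries, 637 without the Mef2b libraries and up to 641 without 1 library each. The causes were not tested. Where replicate numbers do not pair the libraries (correlations from -0.329 to 0.509) the block has no basis in the labels, and under it the Ccnd1 call at 4 months was lost (0.226). Of the 26 mitosis genes, 11 had under 10 counts in some library, and what limits the precision was not tested.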
